A study of Triticum aestivum with 12 samples.

Results

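Null Control is one of 3 wheat genotypes grown in this study, and the comparison described here set its roots under water stress against its roots under well water. It used 4 of the 12 arrays, chosen by their titles: 2 labelled Null Control water stress and 2 labelled Null Control well water, each numbered 1 and 2. Seedlings were germinated and kept in sand and were harvested at 18 days, when root RNA was taken for Affymetrix wheat arrays, 1 array per sample. Well-watered seedlings were watered daily and the stressed ones every second day, so the contrast is one of watering frequency. The labels do not say what Null Control carries or lacks, nor whether different plants lie behind replicates 1 and 2. All p-values therefore measure a spread between arrays that may be technical. Except in alternatives that left arrays out, that spread was shared over all 12 arrays of the study. The other genotypes, Pavon76 and Pavon-TL, had the same design, and their arrays also enter that shared spread and the fit of the replicate number. Otherwise they are used only where a difference from Null Control was tested or where their separate arrays bear on the same probe sets.

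As background, roots are the organ that first meets drying soil. Shortage of water raises abscisic acid in many plants, and this hormone switches on genes for protective hydrophilic proteins such as dehydrins and late embryogenesis abundant (LEA) proteins. Root growth zones rich in dividing cells carry high levels of histone and tubulin transcripts. Bread wheat is hexaploid and has A, B and D copies of most genes, so a probe set, the group of short probes that reports 1 transcript, can read several copies at once. Endings of probe set names mark this: _a_at, _s_at and _x_at probe sets can bind more than 1 transcript.

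Values are log2 RMA values, in which a step of 1 is a 2-fold difference in signal. The 4 arrays had medians between 5.91 and 5.92. Pair differences were taken as stress minus well water within replicate number 1 and within replicate number 2. The numbers mattered: across the 61179 probe sets the deviations of the 2 Null Control groups from their means correlated at r = 0.715, and the 2 well-watered arrays correlated at 0.984 against 0.996 and 0.993 for the same-numbered stressed and well-watered arrays. The SD of the difference between replicates 1 and 2 was 0.436 under well water and 0.437 under stress, while the SD of the stress difference was 0.226 in pair 1 and 0.284 in pair 2. The difference between replicate numbers was thus wider than that between watering schedules. In RNA from a whole root, fewer cells of a type and less RNA per cell cannot be told apart.

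Watering every second day gave small and mostly unequal differences in Null Control roots. No probe set passed limma's test at an adjusted p under 0.05 (0% of 61179, smallest adjusted p = 0.25), and 2090 (3.42%) had an unadjusted limma p under 0.05, 1.56% of all probe sets higher and 1.86% lower. In the blocked model, which fits the replicate number as well, 1 probe set passed (0.00163%), higher under stress, and 5124 (8.38%) had an unadjusted p under 0.05, 4.05% higher and 4.33% lower. Differences of the same sign in both pairs were found for 33481 probe sets (54.7%), 15983 higher (26.1%) and 17498 lower (28.6%). Across probe sets the pair differences correlated at r = 0.181, a description only, since probe sets share arrays and are not independent.

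Larger differences that held in both pairs ran mostly upward. At least 1.5-fold in each pair was reached by 174 higher probe sets (0.284% of all) and 51 lower ones (0.0834%), and at least 2-fold by 25 higher (0.0409%) and 5 lower (0.00817%). The higher ones thus made up 77.3% of the 225. At the 1.5-fold limit, the smaller pair difference of the first higher probe set outside it was 0.584, and the lower ones nearest to it on either side had sizes of 0.586 and 0.582. The stressed arrays lay wholly outside the well-watered arrays in 135 of the 174 and in 27 of the 51, where all probe sets gave 13.2% above and 15.8% below. Since both sets were chosen on these arrays, nothing is read from those counts. An overlapping example is Ta.7000.1.A1_at, which read 6.71 and 9.72 under well water and 7.95 and 10.54 under stress.

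**Figure D1:**
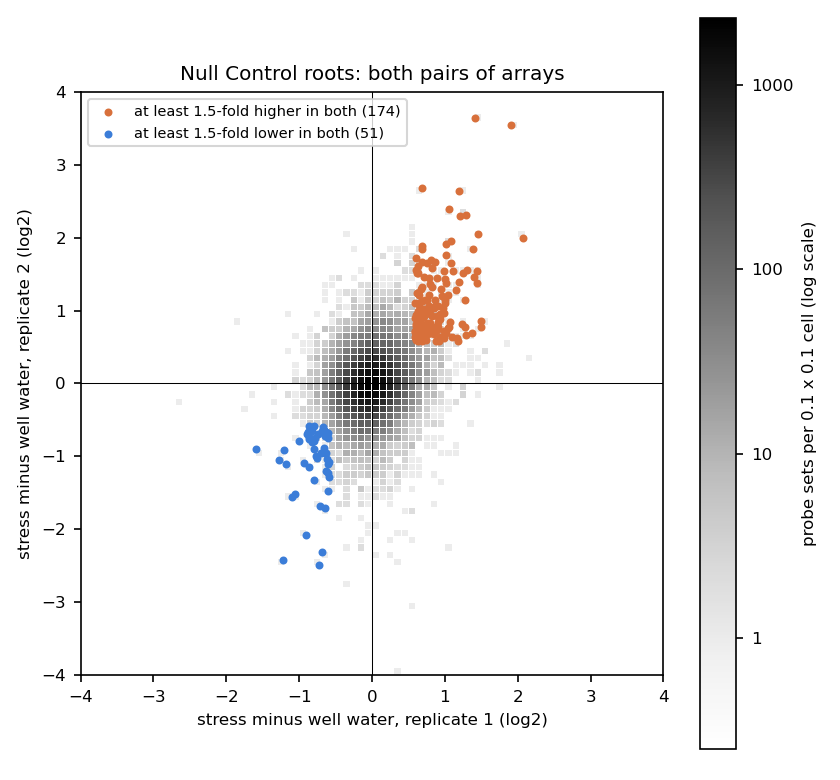
Stress minus well water in replicate 1 (horizontal, log2) against replicate 2 (vertical, log2) for all 61179 probe sets, with grey cells shaded by the number of probe sets on a log scale. The 174 orange and 51 blue points are those at least 1.5-fold higher or lower in both pairs; the cloud has little slope and the orange corner is fuller than the blue one.

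The probe set that passed with the block, TaAffx.28669.1.A1_at, has no gene in the array annotation. It read 5.45 and 5.55 on the well-watered arrays (replicates 1 and 2) and 7.53 and 7.55 on the stressed arrays. The groups lay far apart, and the replicates of each nearly coincided. It rose by 2.04 ± 0.16 (SE, n = 2 per group; limma adjusted p = 0.00458 with the replicate block and 0.25 in the model lacking it). When any 1 Null Control array was left out of the blocked model, its adjusted p ran from 0.0933 to 0.231, so the call needs all 4 arrays, while the difference stayed between 1.94 and 2.13. Its pair differences were 0.84 and 1.06 in Pavon76, and 0.73 and 0.04 in Pavon-TL. The Null Control difference exceeded the mean of the other genotypes by 1.37, with an unadjusted limma p of 3.70e-04 that failed the adjustment across the array (adjusted p = 1, and 0.709 with the block).

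The other unannotated probe sets with the largest differences shared by both pairs are given by their array identifiers. Cluster Ta.23397, a group of probe sets made from related wheat transcripts, had 3 probe sets on the array, and all 3 were at least 1.5-fold higher in both pairs. Ta.23397.2.S1_x_at read 3.81 and 5.50 under well water and 5.72 and 9.05 under stress. Ta.23397.2.S1_at read 4.12 and 5.51, and 5.53 and 9.14. Both were higher in each pair, by far more in replicate 2, where the stressed array stood far above the other 3. The limma difference for Ta.23397.2.S1_x_at was 2.73 ± 1.41 (SE), and with the block the SE was 0.48 and the adjusted p = 0.409.

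TaAffx.111415.1.S1_at had nearly equal replicates, at 9.18 and 9.16 under well water and 10.58 and 10.63 under stress, a difference of 1.43 ± 0.49 (SE). Its SE exceeds the spread within Null Control, since limma shares the spread over the 6 groups. In Pavon76 the pair differences of this probe set were 1.33 and -0.40. TaAffx.114235.1.S1_at read 7.84 and 7.26 under well water and 9.30 and 9.31 under stress. For TaAffx.54414.1.S1_at the values were 6.97 and 6.66, and 8.35 and 8.52. In these 3 probe sets, both stressed arrays lay above both well-watered ones. Ta.21340.1.S1_a_at was at 4.53 and 5.33 under well water and at 5.97 and 6.87 under stress. Ta.14019.1.S1_s_at read 7.42 and 5.37, and 8.87 and 6.75, so its pair differences of 1.44 and 1.38 sat on a replicate gap larger than either.

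Among the lower probe sets, TaAffx.19033.1.S1_at read 8.79 and 8.19 under well water and 7.74 and 6.68 under stress, a difference of -1.28 ± 0.50 (SE; with the block SE 0.21 and limma adjusted p = 0.377). Both stressed arrays lay below both well-watered ones, and the pair differences in Pavon76 (-1.01 and -0.45) and Pavon-TL (-0.80 and -0.29) had the same sign. Ta.13134.1.A1_at read 4.60 and 4.15, and 3.42 and 3.03, near the low end of the scale, where RMA compresses differences. Cluster Ta.8447 had 2 of its 3 probe sets at least 1.5-fold lower in both pairs. Its probe set Ta.8447.1.S1_a_at read 8.75 and 9.73 under well water and 7.47 and 8.68 under stress, and Ta.8447.1.S1_x_at read 6.91 and 7.35, and 5.71 and 6.44. The pair differences of Ta.8447.1.S1_a_at were -1.93 and -1.58 in Pavon76, and -0.78 and 0.28 in Pavon-TL.

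The remaining members of this group depended on the replicate number. Ta.14417.1.S1_at read 10.06 and 8.27 under well water and 8.84 and 5.85 under stress. Ta.15028.1.S1_at read 7.40 and 10.91, and 6.46 and 9.82. Ta.14786.1.S1_at read 8.46 and 5.89, and 7.56 and 3.81, and Ta.14087.1.S1_at read 7.71 and 4.83, and 6.12 and 3.92. In each of these the groups overlapped, and the stressed array of one number was above the well-watered array of the other.

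**Figure D2:**
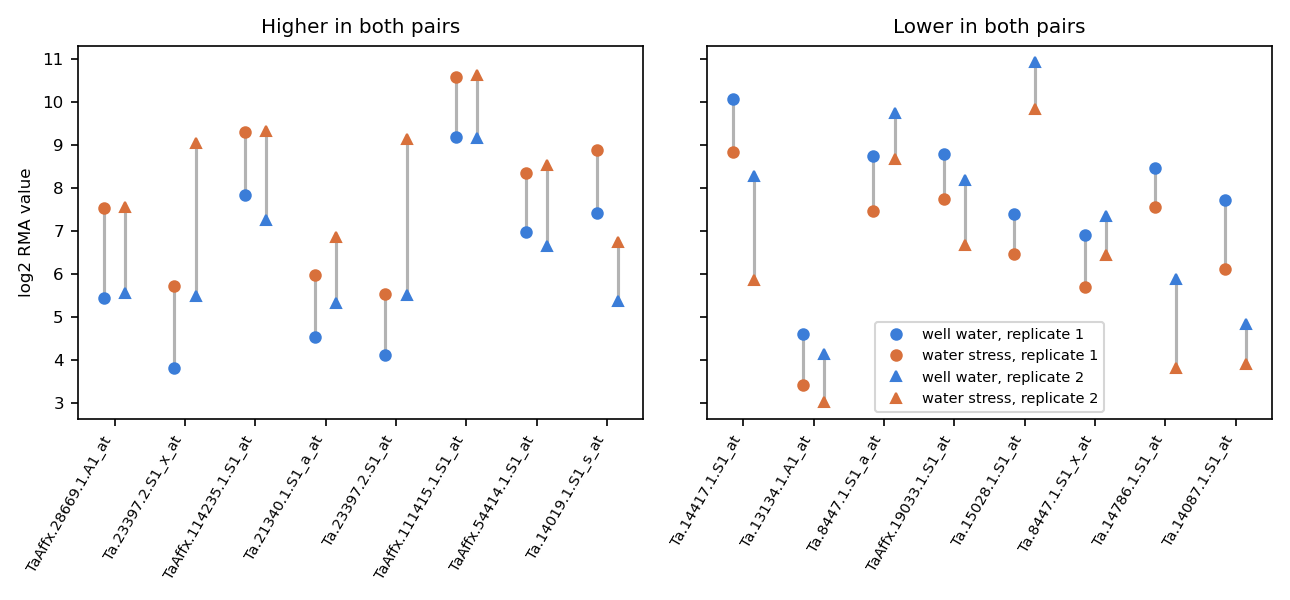
Log2 RMA values (vertical) on each of the 4 Null Control arrays for the 16 probe sets without a gene and with the largest difference shared by both pairs, 8 higher (left) and 8 lower (right) under stress. Circles are replicate 1 and triangles replicate 2, and each grey line joins a pair; TaAffx.28669.1.A1_at has nearly equal replicates and the groups far apart.

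The 225 probe sets of at least 1.5-fold belonged to 209 clusters, and 15 clusters held more than 1 of them. In all but one of those 15 the probe sets of a cluster differed in the same direction. In cluster Ta.303, Ta.303.1.S1_at differed by -0.73 and Ta.303.2.S1_at by 0.88. Of the 174 higher probe sets 164, and of the 51 lower ones 47, had an unadjusted limma p under 0.05 with the block. Without the block the counts were 103 and 18. Over all probe sets the shares were 4.05% higher and 4.33% lower with the block, and 1.56% and 1.86% without it. The 225 were chosen on the same arrays, so the counts support nothing.

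Pavon76 and Pavon-TL were grown on the same schedule and have arrays of their own, which were not used to choose these probe sets. They are not taken as a fully independent measure, since same-numbered arrays deviate together across the genotypes and what they share is unknown. A deviation common to both arrays of a pair cancels in its difference. Of the 174 probe sets higher in Null Control, 147 (84.5%) were also higher under stress in pair 1 of Pavon76 and 152 (87.4%) in pair 1 of Pavon-TL, against 54% and 48% of all probe sets. In pair 2 the shares were 52.9% (92 probe sets) and 52.3% (91), against 52.2% and 48.8% of all. Their median difference was 0.45 and 0.44 in the first pairs and 0.03 and 0.02 in the second. At least 1.5-fold higher were 41.4% and 36.2% of them in pair 1, against 1.25% and 1.89% of all probe sets. In pair 2 these shares were 10.3% and 5.75%, against 0.933% and 0.7%. Most of these probe sets were thus higher under stress in replicate 1 of all 3 genotypes, while in replicate 2 of the other genotypes the share with that direction was near that of all probe sets, though the share past 1.5-fold was above it. What the replicate number stands for was not tested.

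The 51 lower probe sets also kept their direction more often in the first pairs. They were lower in 86.3% of cases (44 probe sets) in pair 1 of each of the other genotypes, against 45.9% and 52% of all. In pair 2 they were lower in 76.5% in Pavon76 (39) and 47.1% in Pavon-TL (24), against 47.8% and 51.1%. The median difference in the second pairs was -0.23 in Pavon76 and 0.02 in Pavon-TL. At least 1.5-fold lower were 58.8% and 45.1% in pair 1, against 1.95% and 1.55% of all, and 25.5% and 5.88% in pair 2, against 1.93% and 0.482%. Over all probe sets, the difference in pair 1 of Null Control correlated at 0.242 with pair 1 of Pavon76 and 0.264 with pair 1 of Pavon-TL. With their second pairs it correlated at -0.067 and 0.117, and with pair 2 of Null Control itself at 0.181. For pair 2 of Null Control the values were 0.148 and 0.125 with the first pairs, and 0.014 and 0.061 with the second. These correlations are across probe sets, which share arrays and normalization and are not independent.

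**Figure D3:**
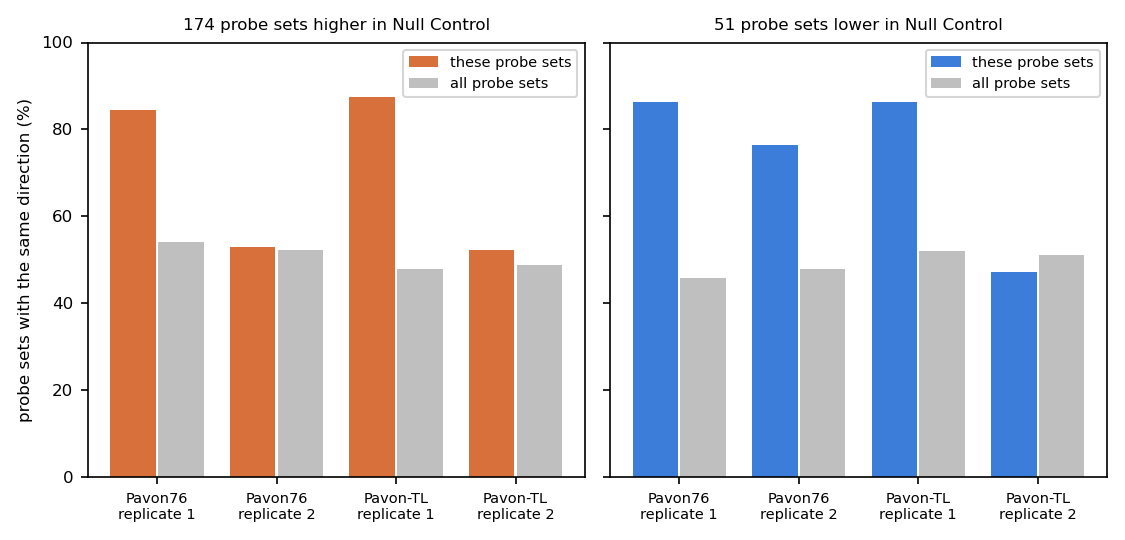
Percentage of probe sets (vertical) whose stress difference has the Null Control direction in each pair of Pavon76 and Pavon-TL, for the 174 higher (left) and 51 lower (right) probe sets in colour and for all 61179 in grey. The coloured bars stand well above grey in both first pairs, and near grey in the second pairs except for the lower probe sets in Pavon76.

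No probe set passed a test of the difference between Null Control and the mean of the other genotypes in its response to watering. In limma 0 of 61179 (0%) passed, with a smallest adjusted p = 1, and 1316 (2.15%) had an unadjusted p under 0.05. With the block 0 passed (smallest adjusted p = 0.658), and 3054 (4.99%) had an unadjusted p under 0.05. Nothing in the Null Control response is thus called particular to this genotype.

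Gene names were available for 200 probe sets of 102 genes, and their differences were small. None passed limma's test, and the smallest adjusted p among them was 0.438 with the block. In both pairs 44 of the 200 were higher and 61 lower, where all probe sets gave 26.1% and 28.6%. At least 1.5-fold in both pairs was reached by 2 of them, one probe set each of the malate channel gene ALMT1-1 and the ubiquitin-conjugating enzyme gene UBC1.

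Membrane transport genes held the largest difference of a named gene. ALMT1-1 (LOC543388) encodes a channel that releases malate from root tips and underlies aluminium tolerance in wheat. It read 7.37 and 8.24 under well water and 8.16 and 8.93 under stress. Each stressed array was above its own well-watered partner, by 0.80 and 0.69, but the stressed array 1 lay below the well-watered array 2. The difference was 0.74 ± 0.54 (SE) in limma (unadjusted p = 0.201), and with the block the SE was 0.16 and the adjusted p = 0.438. In Pavon76 its means were 8.12 under well water and 8.28 under stress, and in Pavon-TL 8.13 and 8.24. The Null Control difference exceeded that of the others by 0.60 (limma interaction unadjusted p = 0.383, and 0.0099 with the block, where the adjusted p = 0.928). The plasma membrane proton pump ha1 (LOC543149), which energises uptake into root cells, differed by 0.08 to 0.16 over its 3 probe sets. TPC1 (LOC543074), a calcium-permeable vacuolar channel, read 9.25 and 9.49 under well water and 9.08 and 9.31 under stress, a difference of -0.18 ± 0.14 (SE). The whole transport list had 3 of 5 probe sets higher and 1 lower in both pairs, with a median of 0.12 against -0.01 for all probe sets.

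Protein turnover and repair genes gave unequal readings. UBC1 (LOC543219) tags proteins for breakdown. Its probe set TaAffx.53697.1.S1_x_at read 8.07 and 8.42 under well water and 7.44 and 7.76 under stress. Both stressed arrays were lower, by -0.63 and -0.66, and the difference was -0.64 ± 0.24 (SE; limma unadjusted p = 0.0248; with the block SE 0.16 and adjusted p = 0.438). Its other 2 probe sets differed by 0.01 and by less than 0.01 in size, so the probe sets of this gene disagreed. PIMT (LOC543193), which repairs damaged aspartyl residues in aging proteins, read 6.34 and 7.15, and 6.88 and 7.63, a difference of 0.51 ± 0.45 (SE). With the block its SE was 0.19 and the limma adjusted p = 0.558. The chaperone gene FKBP70 (LOC543314), a prolyl isomerase, differed by 0.09 ± 0.81 (SE). Its large SE came with replicates 12.89 and 11.70 under well water, and with the block the SE was 0.12. A heat shock gene, hsp16.9A (LOC543277), was at 3.88 and 3.63 under well water and at 3.67 and 3.55 under stress.

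Detoxification and redox genes had positive differences in 10 of 15 probe sets, all small, where 29594 of all 61179 probe sets were positive. GSTZ1 (LOC543412), a zeta-class glutathione transferase, had 3 probe sets, all 3 higher in both pairs. Its Ta.237.1.S1_a_at read 9.76 and 10.08 under well water and 10.26 and 10.53 under stress, without overlap. The 3 differed by 0.47 ± 0.34, 0.46 ± 0.46 and 0.30 ± 0.21 (SE). With the block the SEs were 0.19, 0.20 and 0.16, and none passed (smallest limma adjusted p = 0.571). In the other genotypes the pair differences of Ta.237.1.S1_a_at lay between -0.32 and 0.13, and the interaction was 0.51 (limma unadjusted p = 0.256, and 0.0499 with the block, where the adjusted p = 0.928). Catalase CAT1, which breaks down hydrogen peroxide, read 5.86 and 5.85, and 5.76 and 5.75. The glyoxalase lgul (LOC542984), which removes methylglyoxal, read 3.68 and 3.72, and 3.86 and 3.89 in one probe set, and differed in sign between pairs in the other. Of the 15, 6 were higher and 2 lower in both pairs, and 7 had opposite signs. The median was 0.05, but it was 0.1 in pair 1 and -0.1 in pair 2.

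Dehydrins and LEA proteins split. Of 10 probe sets 3 were higher and 2 lower in both pairs, and the median difference was 0.04. Rab15 (LOC543293), a dehydrin, read 8.16 and 8.69 under well water and 8.47 and 8.57 under stress in its brightest probe set, higher in pair 1 and lower in pair 2. A dimmer Rab15 probe set, TaAffx.46097.2.S1_at, read 4.34 and 4.68, and 4.59 and 5.06, higher in both pairs by 0.25 and 0.38, while Ta.2704.1.S1_x_at differed by 0.27 and -0.06. The LEA gene EMH2 (LOC543480), first known from wheat embryos, read 7.29 and 7.29, and 6.95 and 6.94 in Ta.25025.1.S1_s_at. The groups did not overlap, and the difference was -0.34 ± 0.15 (SE; limma unadjusted p = 0.0504). Its other 2 probe sets differed by 0.03 and -0.07. PMA2005 (LOC543476), another LEA gene, read 4.47 and 5.58 under well water and 5.30 and 5.78 under stress, a difference of 0.52 ± 0.41 (SE) carried by pair 1. COR410, an acidic dehydrin of the plasma membrane, differed by 0.12 and -0.12 in the 2 pairs.

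Histone differences were unequal between the pairs. The histone and chromatin list had 17 of 20 negative differences and a median of -0.18, but its median was 0.02 in pair 1 and -0.39 in pair 2. In both pairs 7 probe sets were lower and 2 higher. The 2 higher ones belonged to Hmgb3 (LOC543333), a high mobility group protein that bends DNA, which read 11.71 and 12.44 under well water and 12.06 and 12.61 under stress in Ta.30768.1.S1_x_at. The core histone gene wcH2A-2 (LOC732712) read 9.47 and 10.03, and 9.21 and 9.24. The well-watered array 2 stood above the other 3, and the difference was -0.53 ± 0.18 (SE; limma unadjusted p = 0.0182; with the block SE 0.14 and adjusted p = 0.459). The 7 probe sets of histone wcH2B-8 (LOC543184) all had negative differences, from -0.38 to -0.11, with medians of -0.04 in pair 1 and -0.51 in pair 2. In wcH2A-9 (LOC732714) the probe set Ta.27657.12.S1_at turned sign outright, at 0.73 in pair 1 and -0.75 in pair 2.

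Tubulins, the subunits of microtubules, gave small negative differences in both pairs. Of 12 tubulin and profilin probe sets 9 were lower and 1 higher in both pairs, with medians of -0.09 in pair 1 and -0.19 in pair 2. The beta-tubulin genes tubb3 (LOC543473) and Tubb4 (LOC543260) both differed by -0.16, with SEs of 0.12 and 0.10. Tubb3 read 13.50 and 13.39 under well water and 13.32 and 13.24 under stress. The 4 probe sets of Tubb5 (LOC543261) differed by -0.29 to -0.21, and tubb1 (LOC543257) by 0.07 ± 0.13 (SE). None had an adjusted p under 0.05 in either model.

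Carbohydrate and cell wall genes mostly had opposite signs in the pairs. XTH, which cuts and rejoins xyloglucan in growing walls, read 6.88 and 8.61 under well water and 6.99 and 7.08 under stress. Its well-watered array 2 stood alone above the other 3, and the difference of -0.71 ± 0.54 (SE, with the block 0.47) came from pair 2. COMT1 (LOC543449), a methyltransferase of lignin precursors, differed by 0.02 ± 0.50 (SE, with the block 0.13). 1-FEH (LOC543441), which breaks down fructans, read 10.81 and 11.08 under well water and 10.84 and 10.97 under stress. Of the 6 probe sets in the osmolyte and fructan list, 5 had opposite signs in the 2 pairs. GAPN, a cytosolic enzyme that makes NADPH from glyceraldehyde 3-phosphate, read 5.66 and 6.01, and 5.94 and 6.96, higher in both pairs and mostly in pair 2. The beta-glucosidase GLU1A (LOC780595), which frees defence compounds from their sugar, read 10.95 and 11.81, and 10.23 and 11.26. Its pair differences of -0.73 and -0.54 gave -0.63 ± 0.41 (SE) in limma.

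**Figure D4:**
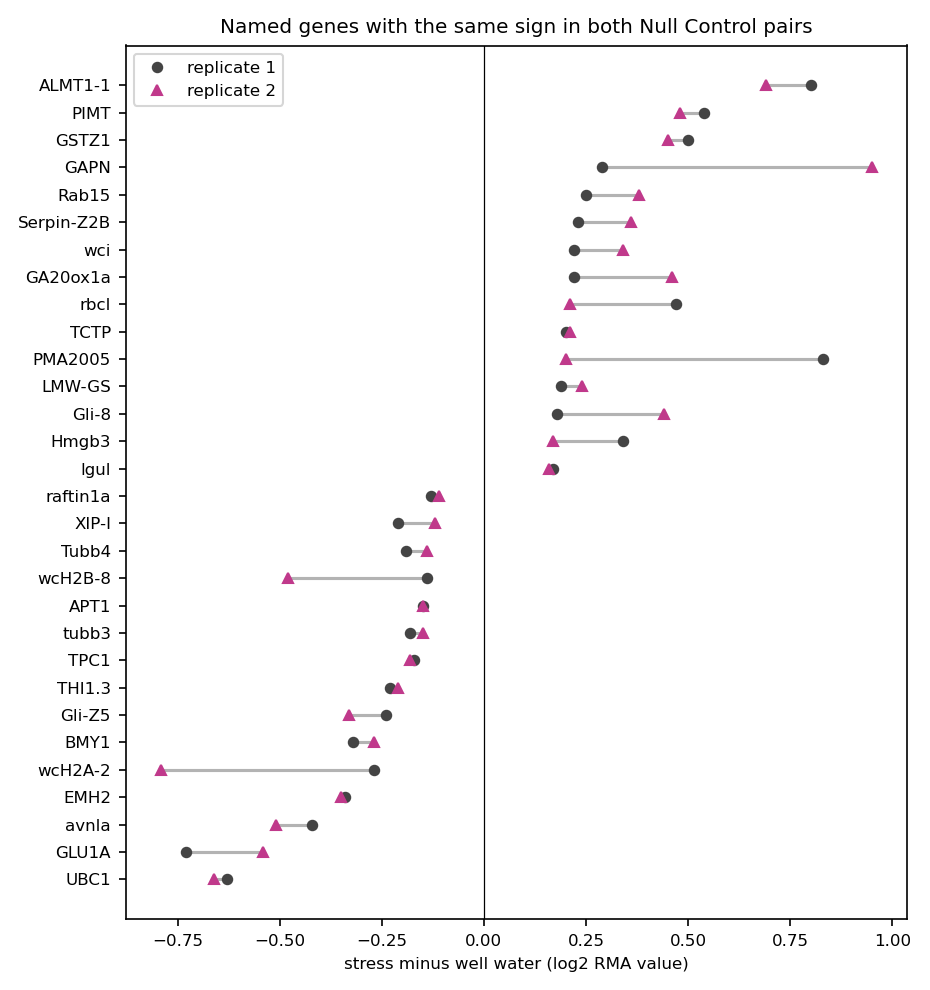
Stress minus well water (horizontal, log2) in replicate 1 (circles) and replicate 2 (triangles) for the 15 named genes higher and the 15 lower in both Null Control pairs, 1 probe set per gene. ALMT1-1 and UBC1 are the 2 past 1.5-fold in both pairs, and several others, such as GAPN and wcH2A-2, have unequal pairs.

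Defence genes were mixed. The gene wci (LOC542996), named for its induction by chemical treatment, read 6.77 and 6.72 under well water and 6.99 and 7.06 under stress. The groups did not overlap, and the difference was 0.28 ± 0.12 (SE; limma unadjusted p = 0.051). The thaumatin-like protein PR5 (LOC543292) read 5.07 and 5.24, and 4.52 and 5.23, a difference of -0.55 in pair 1 and less than 0.01 in size in pair 2. The lectin gene WGA2 (LOC543494), wheat germ agglutinin, read 7.72 and 9.30, and 7.68 and 10.33, a replicate gap wider than either pair difference. In the list of 11, 2 probe sets were higher and 4 lower in both pairs. The median was -0.09.

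Growth and translation genes differed little. The gibberellin 20-oxidase genes make a precursor of active gibberellin, and their A copy GA20ox1a (LOC543327) read 5.78 and 5.62 under well water and 6.08 on the stressed array 2, with pair differences of 0.22 and 0.46. The B copy GA20ox1b (LOC543326) read 5.16 and 5.14, and 5.28 and 5.59. Both were higher in each pair, by 0.34 ± 0.24 and 0.28 ± 0.21 (SE), while the D copy GA20ox1d (LOC543325) differed by 0.08 and 0.12 in its 2 probe sets. TCTP (LOC542949), a translationally controlled tumour protein found in growing tissue, read 14.18 and 14.18, and 14.38 and 14.38, near the top of the scale. The initiation factor gene eIF-2-beta (LOC543269) differed by -0.01 in pair 1 and -0.52 in pair 2. Of 9 translation probe sets 2 were higher and 3 lower in both pairs, with a median of 0.01. The zinc finger gene WZF1 (LOC543182) read 11.75 and 10.98, and 11.86 and 10.42. The methylation cycle enzyme SAHH and the cysteine synthase cys1 (LOC543181) had 3 of 4 probe sets lower in both pairs, and the 4 had a median of -0.10.

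**Figure D5:**
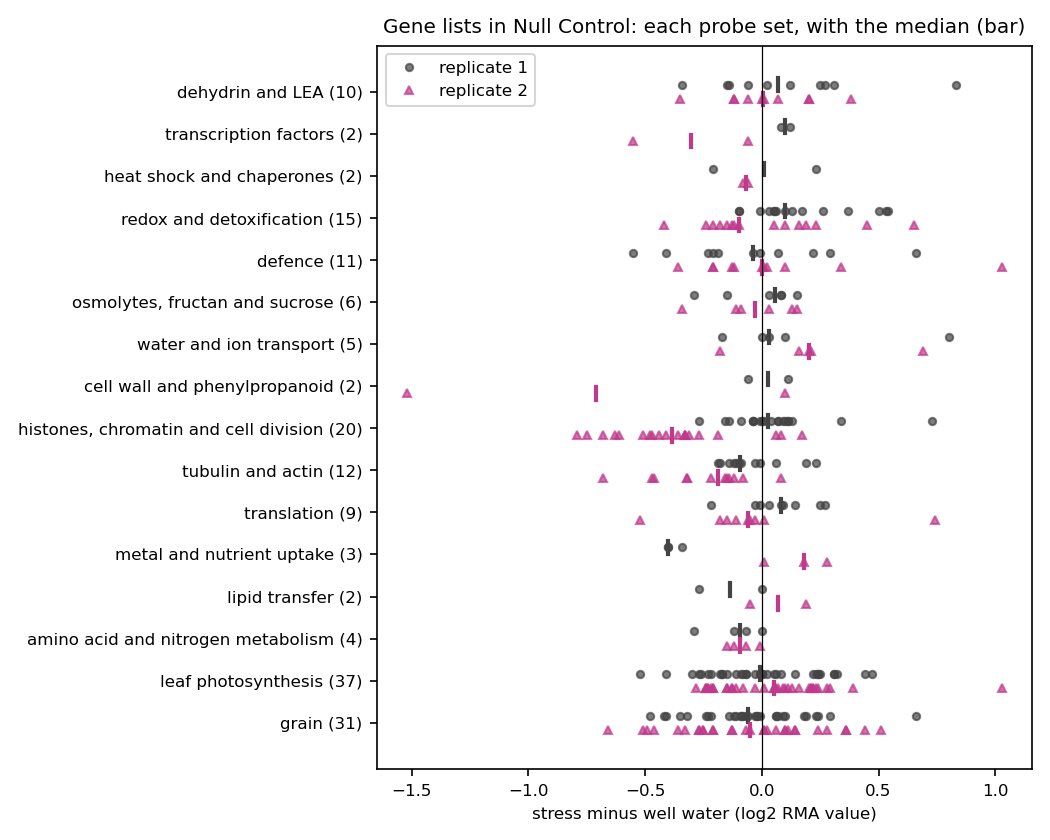
Stress minus well water (horizontal, log2) for each probe set of 16 gene lists in replicate 1 (circles) and replicate 2 (triangles), with the median of each as a bar and the number of probe sets in brackets. The histone medians sit at 0.02 and -0.39, the tubulin medians are both below 0, and most other lists lie around 0.

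Annotated genes with only a LOC number made up 1073 probe sets, of which 5 reached 1.5-fold in both pairs. These 5 were singled out after their values were seen. LOC543448 read 7.88 and 7.19 under well water and 8.66 and 8.26 under stress, a difference of 0.92 ± 0.34 (SE; with the block SE 0.15 and limma adjusted p = 0.377). LOC100049047 read 6.14 and 6.25, and 6.77 and 7.23, and LOC778392 read 4.46 and 3.85, and 5.06 and 4.79. In these 3 the stressed arrays lay above the well-watered ones. LOC543176 read 8.73 and 7.01, and 7.62 and 5.46, and was lower in both pairs, by -1.10 and -1.56. LOC542820 read 12.16 and 8.78, and 12.84 and 9.40, with a replicate gap many times its stress difference.

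Markers of the tissue and of RNA quality were read beside these results. DMAS1 (LOC100037594), an enzyme of phytosiderophore synthesis that roots use to take up iron, read 12.13 and 9.14 under well water and 11.73 and 9.42 under stress in its brightest probe set. Its gap between replicates was far wider than its pair differences of -0.40 and 0.28. Leaf photosynthesis genes were read by 37 probe sets, of which 28 belong to rbcl (LOC100049018), the large subunit gene of Rubisco. Their array means were 4.57 and 4.66 under well water and 4.57 and 4.70 under stress. Of the 37, 11 were higher and 9 lower in both pairs. The rbcl probe set Ta.24976.1.S1_x_at was bright, at 11.40 and 12.03, and 11.87 and 12.25, while the leaf enzyme PRK (LOC543283) read 3.75 and 3.76, and 3.48 and 4.15. PsbO (LOC543291), the brightest of this list outside rbcl, read 6.62 and 7.45, and 6.70 and 7.51, above the array medians. The Rieske protein gene petC, also of photosynthesis, read 4.82 and 5.13, and 4.79 and 6.17 in Ta.861.1.S1_at. The grain list of 31 probe sets averaged 4.55 and 4.64 under well water and 4.51 and 4.58 under stress, close to the first quartile of all values (4.34), with 5 higher and 10 lower in both pairs. Not all of this list was dim: its brightest probe set, Ta.27777.1.S1_at of avnlb (LOC100125692), read 11.12 and 11.57, and 11.36 and 11.58. Among the other members of the list the gliadin Gli-8 (LOC543211) read 6.32 and 6.47, and 6.50 and 6.91. The avenin-like gene avnla (LOC780582) read 3.72 and 4.18, and 3.30 and 3.67. The serpin gene Serpin-Z2B (LOC543382), a protease inhibitor of grain, read 3.44 and 3.40, and 3.67 and 3.76.

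Hybridization spikes, bacterial and phage transcripts added to each sample before hybridization, differed between the conditions. Over 20 of their probe sets the mean was 10.11 and 10.33 on the well-watered arrays and 10.73 and 10.78 on the stressed arrays. All 20 were higher in each pair. The Tae versions of the bioB, bioC and bioD probe sets were not in this mean and were also higher in each pair. Labelling spikes (36 probe sets, those for trp left out) averaged 8.02 and 8.30, and 8.25 and 8.31. The difference between 3′ and 5′ probe sets was read as a sign of RNA integrity. Over 7 wheat control genes it averaged 0.77 and 0.81 under well water and 0.72 and 0.82 under stress. These means joined unlike genes. Under well water the difference was -2.28 and -2.38 for gapdh and -1.99 and -1.91 for actin. It was 6.75 and 7.27 for Sucsyn and 3.24 and 3.3 for G-6-PDH. Each of these genes kept its sign under stress. The means therefore compare the arrays and do not by themselves show good RNA integrity. The part of the hybridization spikes in the stress differences was not tested.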

How the data were processed

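The deposited values are log2 values per probe set that the authors computed with RMA, per the submitters' processing notes. The RMA version is not given in the sources used here. RMA corrects background, makes the distributions of the arrays equal and summarizes probes, so a shift shared by most transcripts would be removed. The 111 Affymetrix control probe sets were kept out of the tests, which left 61179. No filter or detection call was applied. The number of arrays limits the precision.

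Groups and replicate numbers came from the sample titles. The log2 values were fitted with limma 3.58.1 in R 4.3.3 as 6 group means over 12 arrays, with empirical Bayes moderation. The contrasts were Null Control water stress minus well water, and that difference minus the mean of the other genotypes. Tests were two-sided, with Benjamini-Hochberg adjustment over all 61179 probe sets at 0.05. Sharing the spread over 6 groups was needed because each group has 2 arrays. The code was tested on simulated data with independent arrays. That simulation had no shared replicate deviations, so it cannot show how the main model behaves where these are present.

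The replicate number was fitted as a block as an alternative. Deviations from group means correlated between 0.606 and 0.795 in 15 of 15 pairs of groups, above the limit of 0.1. The arrays were therefore taken as paired for the pair differences and the blocked model, while the main model left the number out. Each SE and p-value printed without mention of the block comes from that main model. Its spread includes the gap between replicate numbers. What a number stands for is not in the labels.

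Gene names came from the array annotation of GEO, updated through RefSeq's gene table. It gave 1 gene for 1273 probe sets (2.08%), several for 0 and none for 59906. Of 771 genes 770 matched, and 102 had a name other than a LOC number. No genome or sequence table was used here, so no sequences are printed.

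Named were up to 15 named genes in each direction with the same sign in both pairs, ranked by the smaller difference, with 1 probe set per gene (the brightest of those with the same sign in both pairs, which need not be the brightest of the gene). Up to 5 members of each of 16 gene lists, up to 8 probe sets without a gene in each direction, and every called probe set were added. Not all of those chosen by these rules are described above: XIP-I, PEAMT1, LTP3 and TEF1 are among those left out. A list for kinases, G proteins and calcium had no named member apart from TPC1, which was kept with transport. The members and lists were chosen with earlier results of these data known. Further probe sets of a named gene, overlapping or opposed examples (Ta.7000, Ta.303, Ta.27657.12.S1_at), CAT1, COR410, GA20ox1b, GA20ox1d, PRK, Tubb5, petC and the LOC-only genes were added after their values were seen.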

Additional observations from a re-analysis of the deposited data

Results flagged for a closer look

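BMY1 (LOC543318), a beta-amylase of grain, had pair differences of -0.32 and -0.27 in Null Control, while all 4 pairs of the other genotypes were positive, from 0.13 to 0.60. It was singled out because every pair of one genotype moved against every pair of the others. The same pattern was found in 949 of the 17498 probe sets lower in both Null Control pairs (5.42%). The reverse was found in 645 of the 15983 higher ones (4.04%). Of all 61179 probe sets, 7.85% were higher in all 4 pairs of the other genotypes. BMY1 read 5.02 and 5.24 under well water and 4.70 and 4.98 under stress, below the array medians. The Null Control difference was lower than theirs by -0.59, with a limma interaction unadjusted p = 0.0559 and an adjusted p = 1. With the replicate block these were 0.0319 and 0.928.

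The hybridization spikes lie outside the tested probe sets. The 20 averaged ones were 0.54 higher on the stressed than on the well-watered Null Control arrays over both pairs (0.63 and 0.45).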

How the results depend on the processing

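The count of 0 calls for stress in Null Control was unchanged under the filter on dim probe sets, a second quantile normalization, median centring, trended and robust moderation, and the 4 Null Control arrays alone. Without any 1 Null Control array it ran from 0 to 0. It was 1 with the replicate block, 1 with the block on the Null Control arrays alone, and, in alternatives chosen after seeing the data, 1 with the block and the dim filter and 2 with the block and trended, robust moderation, where Ta.787.1.S1_x_at joined with an adjusted p = 0.0389. With the block and 1 array left out it was 0. The test against the other genotypes gave 0 calls under all alternatives run. Of the probe sets with the same sign in both pairs, 8541 higher and 8715 lower remained under the dim filter, because fewer were tested. Counts at 1.5-fold and 2-fold stayed within 1.5 times of the reported ones. A pair cannot be formed without a replicate, so leaving out an array was not run for the pair counts. Of 100 probe sets chosen for naming, 55 kept their sign under all alternatives run. The block changed no other call.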
